A study of Drosophila melanogaster with 47 samples.

Results

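The genes described here are 9 genes read out when Jun N-terminal kinase (JNK) signalling or cell death is engaged in Drosophila: puc, kay, Jra, Ets21C, Gadd45, Mmp1, egr, rpr and hid. They were taken by symbol from the deposited gene tables, in which 11964 genes have a row in any table used. All 9 have a row in each of the 3 tables. The study compared midguts of mated and unmated female Drosophila melanogaster, and 32 of its 47 samples were analysed here, as 8 groups of 4 libraries. Mated females had spent 48 h with males. The unmated females, matched in age and genotype, had been kept from males since eclosion.

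Sorted esg+ progenitors came from esg-Gal4 flies, mated and unmated, with 100 to 150 guts to a library. Whole guts of the same genotype, again mated and unmated, were pooled by 15 guts. The esg-Gal4 driver is active in intestinal stem cells and their undifferentiated daughters, and the flies of both kinds of library carried it. Whole guts also came from flies with the ubiquitous driver Actin-Gal4, as Actin-Gal4/ EcR RNAi, which carries an RNAi construct against the ecdysone receptor gene EcR, and as the Actin-Gal4 control, each mated and unmated. The virgin Actin flies, RNAi and control, were held at 29 °C for 5 days before mating at 25 °C. The sources used here give no age for the esg-Gal4 flies.

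JNK is a stress kinase that is switched on by wounding, oxidative damage, loss of cell contacts and the tumour necrosis factor Eiger. A cascade of kinases, among them hep, activates the JNK bsk, which phosphorylates the AP-1 proteins encoded by Jra and kay, and AP-1 then drives its targets. In the adult fly midgut JNK is known for responses to damage and for a part in stem cell division. In fly cells apoptosis starts when Reaper, Hid or Grim binds the inhibitor Diap1 and so frees the caspases Dronc, Drice and Dcp-1. Sorting is itself a stress to cells, since the tissue is taken apart before lysis.

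Progenitor libraries held 31362803 to 44260161 counts when mated and 34284770 to 37253762 when unmated, and whole gut libraries 17005386 to 24538084 counts when mated and 13718418 to 22350830 when unmated. Actin libraries held 19383292 to 29820841 counts. The 8 progenitor markers, such as esg and Dl, summed to 2690 to 4420 CPM (counts per 1e6 counts of the library) in progenitor libraries and to 71.2 to 140 CPM in esg-Gal4 whole guts, and all 8 were called higher in the sorted cells in both mating states. Enterocyte markers summed to 1680 to 3350 CPM in the progenitor libraries, so transcripts of other gut cells were present there. EcR went against the RNAi label, at 9.57 ± 1.15 CPM in mated guts labelled EcR RNAi and 8.28 ± 0.94 CPM in mated controls, and at 12.9 ± 1.28 CPM in unmated guts labelled EcR RNAi and 8.07 ± 1.04 CPM in unmated controls (SD, n = 4). In unmated guts that was higher by the test (adjusted p = 0.00125), so the libraries are called by their label only.

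Levels are CPM on a library size adjusted by trimmed mean of M values (TMM), set within each table. Joint scaling of progenitors and whole guts would move progenitor levels by -0.318 to -0.246 and whole gut levels by 0.245 to 0.31 on the log2 scale, so folds between those materials are taken only from their joint fit. A log2 change is a log2 fold change, given with its standard error (SE), and a gene was called at a Benjamini-Hochberg adjusted p under 0.05 in edgeR's quasi-likelihood test, adjusted over all genes tested. Replicates are pools of guts. In bulk samples, fewer cells of a type and less RNA per cell cannot be told apart.

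**Figure D1:**
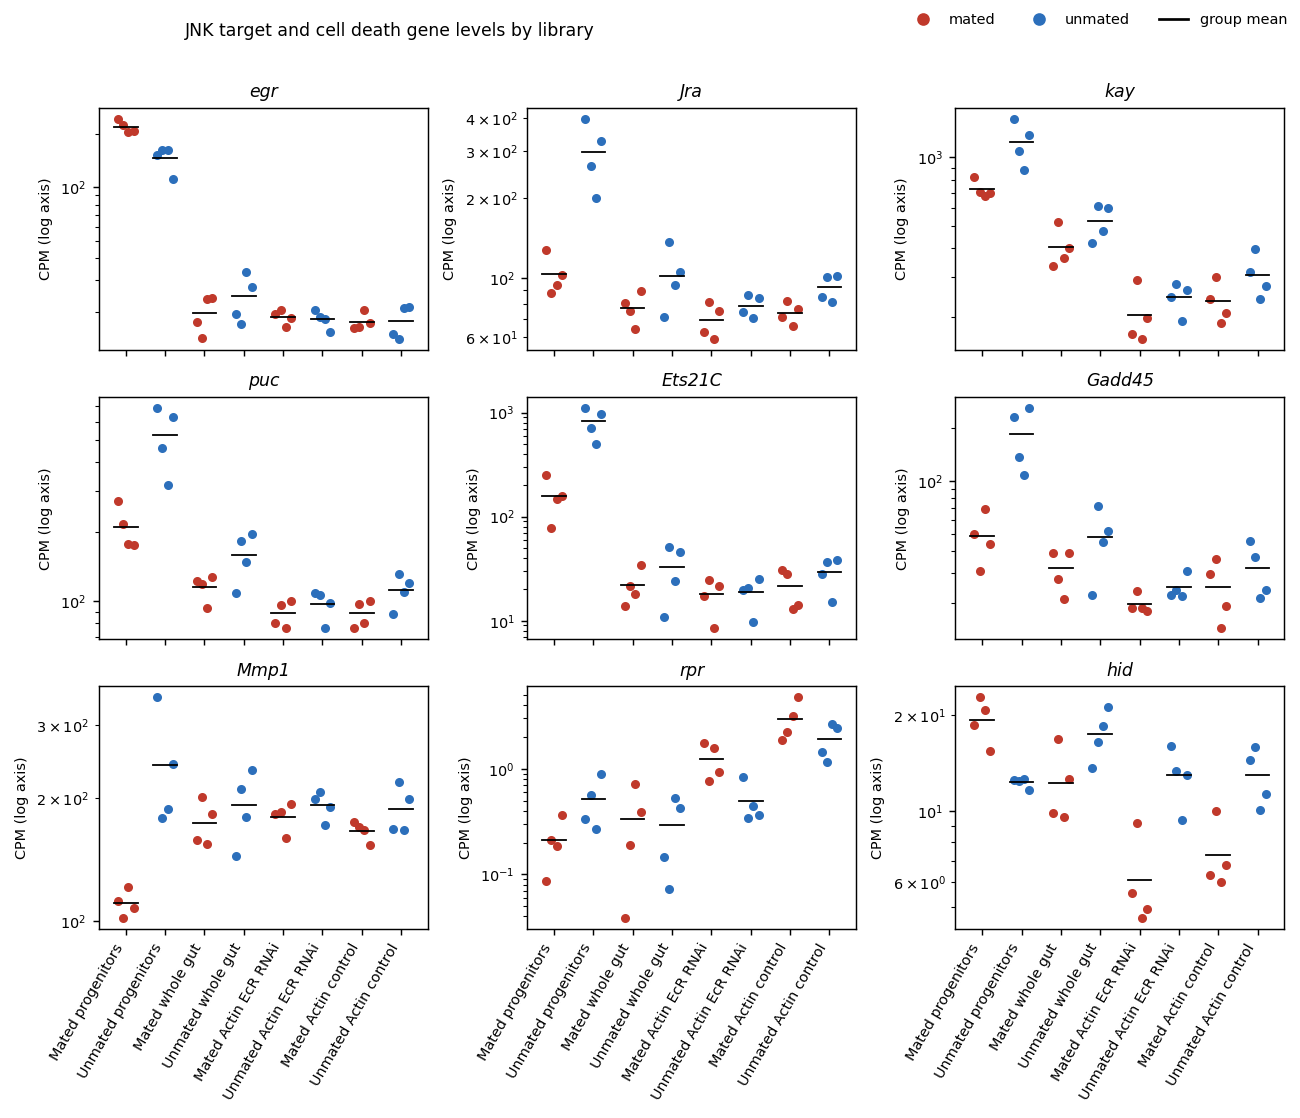
Level of each gene in CPM (log axis) in each of the 32 libraries, by group, with mated libraries in red and unmated in blue and a bar at the group mean. Each table has its own scale. Of progenitors and whole guts on the joint scale of the text, unmated progenitors had the highest means of puc, Ets21C, Jra, kay and Gadd45. Of the Actin groups, mated controls had the highest mean of rpr.

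Mated progenitors had lower transcripts of all 6 JNK-linked targets and AP-1 subunits than unmated progenitors, and higher transcripts of egr and hid. Of the 9 genes, 8 passed the filter on low counts and all 8 were called, 6 lower and 2 higher. Mating called 40.2% of all 9025 genes tested in this material, 19.1% higher and 21.1% lower, so a call is common here. The 8 genes had a median log2 change of -1.22, against 0.02 over all genes tested. In none of the 8 did the mated and unmated libraries overlap, as was so for 41.3% of all genes tested.

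The feedback phosphatase gene puc (FBgn0243512; 3R, 8105332 to 8122294, plus strand in the BDGP6.54 annotation) is the usual reporter of JNK activity in flies. It was at 272, 215, 177 and 175 CPM in mated progenitors 1 to 4, against 686, 462, 318 and 627 CPM in unmated progenitors 1 to 4. Every unmated library lay above every mated one, and unmated libraries 1 and 4 were the highest. The group means were 209.6 ± 45.3 CPM and 523 ± 166 CPM, a log2 change of -1.32 with SE 0.25 (adjusted p = 0.00647).

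Ets21C (FBgn0005660; 2L, 544925 to 552923, minus strand) encodes an ETS transcription factor induced by JNK, and of the 9 genes it had the lowest fold change. It stood at 249, 77.6, 149 and 159 CPM in mated and at 1099, 718, 502 and 965 CPM in unmated progenitors. The lowest unmated library was above the highest mated one. The log2 fold change was -2.37 (SE 0.36, adjusted p = 0.00382). Of its exonic bases, 28.3% are shared with nAChRbeta3 on the other strand, and the strand setting of the counting is not given in the sources used here.

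Gadd45 (FBgn0033153; 2R, 7249161 to 7250655, plus strand) encodes a stress-induced regulator that can activate a JNK pathway kinase. Its levels were 49.6, 30.7, 69.5 and 43.9 CPM in mated and 231, 137, 108 and 259 CPM in unmated progenitors. The mean was 48.4 ± 16.1 CPM in mated against 184 ± 72.5 CPM in unmated cells, a log2 change of -1.92 with SE 0.33 (adjusted p = 0.00507). Mmp1 (FBgn0035049; 2R, 24671294 to 24688184, minus strand), a matrix metalloprotease gene induced by JNK in discs and tumours, was at 112, 102, 122 and 108 CPM in mated and 351, 179, 188 and 242 CPM in unmated progenitors. Mated libraries lay close together, and unmated library 1 was the highest. The log2 fold change of Mmp1 was -1.11 (SE 0.20, adjusted p = 0.00549).

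The AP-1 genes fell by less than Ets21C and Gadd45 in their estimates. Jra, the fly Jun (FBgn0001291; 2R, 10096480 to 10098556, plus strand), was at 127, 88.0, 94.3 and 102 CPM in mated and at 396, 264, 199 and 327 CPM in unmated progenitors. Its log2 fold change was -1.53 (SE 0.21, adjusted p = 0.00281). Its partner kay, the fly Fos (FBgn0001297; 3R, 29765995 to 29794113, plus strand), was the most abundant of the 9 genes in CPM, at 817, 704, 675 and 698 CPM in mated and 1472, 1064, 882 and 1253 CPM in unmated progenitors. The log2 fold change of kay was -0.69 (SE 0.14, adjusted p = 0.00835). Per kilobase of exon, levels in unmated progenitors were 181 ± 51.2 CPM for Jra, 165 ± 52.4 for puc, 152 ± 48.9 for Ets21C and 149.9 ± 32.5 for kay, so on that scale these genes did not differ beyond their spread.

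The ligand gene egr (FBgn0033483; 2R, 10078366 to 10084210, plus strand), which encodes Eiger, went the other way. It was at 242, 224, 205 and 206 CPM in mated and 152, 162, 163 and 111 CPM in unmated progenitors. The log2 fold change was 0.58 (SE 0.12, adjusted p = 0.00845). The death gene hid (FBgn0003997; 3L, 18167745 to 18185641, minus strand) was at 18.6, 22.8, 20.7 and 15.5 CPM in mated and 12.6, 12.4, 12.6 and 11.7 CPM in unmated progenitors. It rose with a log2 change of 0.65 with SE 0.12 (adjusted p = 0.00549), and its unmated libraries were nearly alike. The other death gene, rpr (FBgn0011706; 3L, 18397535 to 18398435, minus strand), lies 211.9 kb from hid and had 4, 7, 7 and 13 counts in mated and 10, 18, 10 and 28 counts in unmated progenitors. It did not pass the filter and was not tested there. In the 7 alternative fits where it passed, rpr had log2 changes of -1.51 to -0.98, with adjusted p of 0.04 to 0.285, and it was called in 1 of them, without unmated library 3 (-1.51, SE 0.51).

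**Figure D2:**
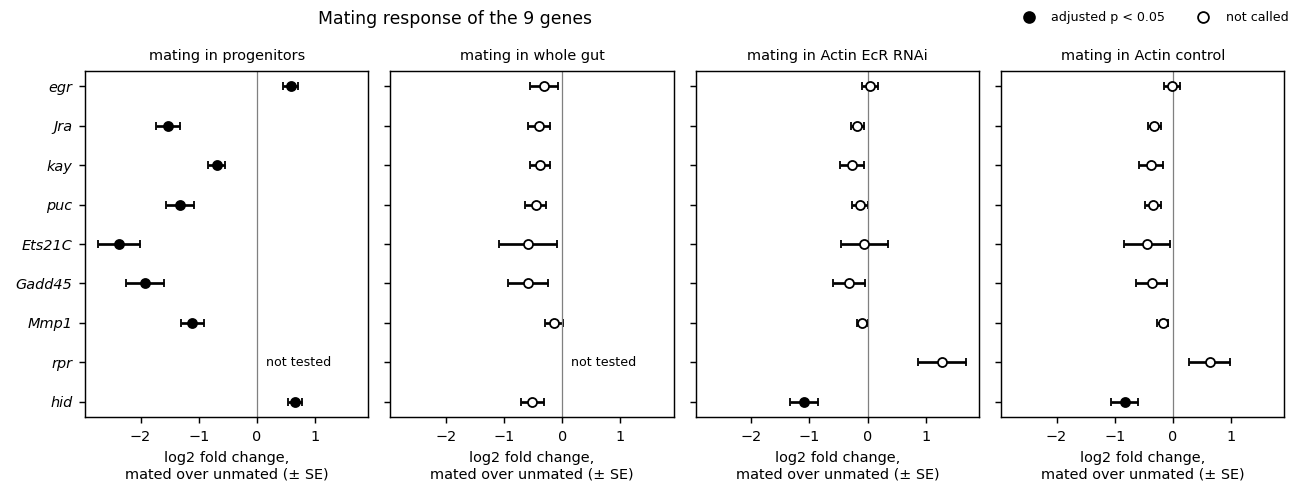
Log2 fold change of mated over unmated libraries with its SE for each gene in the 4 kinds of material. Filled points passed an adjusted p under 0.05: 8 genes in progenitors, none in whole guts by edgeR, and hid alone in each Actin genotype.

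Heat shock transcripts fell in mated progenitors, as the JNK-linked targets and AP-1 genes did, while egr and hid rose. All 15 heat shock genes tested fell in mated progenitors, with a median log2 change of -2.83. Their mean log2 CPM was 7.29, 6.55, 6.58 and 6.83 in mated and 10.3, 9.52, 8.38 and 9.97 in unmated progenitors 1 to 4. The unmated libraries stood in the same order, with 1 and 4 highest and 3 lowest, as for puc, Ets21C, Jra and kay. Gadd45 had 4 ahead of 1, and Mmp1 had 2 as the lowest. The part of the heat shock level in the result was not tested.

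Without unmated libraries 1 and 4 all 8 genes were still called, where 14.3% of all 9117 genes tested were, 4.57% higher and 9.71% lower. rpr, which then passed the filter, was not called (-0.98, adjusted p = 0.285). The log2 fold changes became -1.95 for Ets21C (adjusted p = 0.03), -1.35 for Gadd45 (adjusted p = 0.0341), -1.18 for Jra (adjusted p = 0.00887), -0.91 for puc (adjusted p = 0.0406), -0.73 for Mmp1 (adjusted p = 0.00345) and -0.44 for kay (adjusted p = 0.0359). For egr and hid they were 0.42 (adjusted p = 0.0193) and 0.62 (adjusted p = 0.0375). The 15 heat shock genes were lower there too, with a median of -2.12. All 8 estimates lay closer to 0 in that setting, and hid moved least. Libraries 1 and 4 were the highest unmated ones for every gene that fell and the lowest for egr. Leaving them out moves the unmated means of those genes towards the mated ones, whatever set these libraries apart. What set them apart was not tested.

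**Figure D3:**
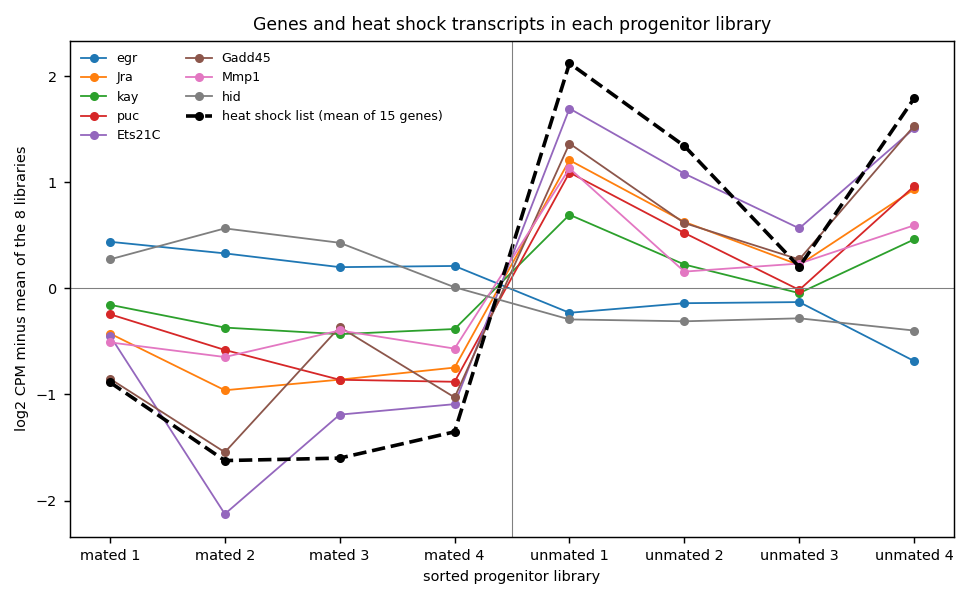
Level in each of the 8 progenitor libraries as log2 CPM minus the mean of the 8, for each gene tested and for the mean of 15 heat shock genes (dashed). Unmated libraries 1 and 4 were the highest for puc and for the heat shock list. The means of egr and hid were higher in mated than in unmated libraries. Of the unmated libraries, 1 and 4 were the lowest for egr.

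Some markers of other cells were lower in mated progenitors, where 21.1% of all genes were. Of 12 enteroendocrine markers tested 5 fell and none rose, and their sums were 147 to 464 CPM in mated and 321 to 557 CPM in unmated libraries. Of 11 enterocyte markers 4 fell and none rose, with sums of 1680 to 2290 CPM in mated and 2190 to 3350 CPM in unmated libraries. Both tracheal markers tested, 1 of 5 ovary and 1 of 3 neuron markers fell as well. Of 4 haemocyte markers 0 were called by edgeR, with 1 at an unadjusted p under 0.05, and 0 by DESeq2. Of 12 visceral muscle markers 0 were called by edgeR and 0 by DESeq2, with 2 at an unadjusted p under 0.05 in edgeR, and their mean log2 CPM lay between 1.58 and 2.10 in mated and between 1.93 and 2.65 in unmated progenitors. Without unmated libraries 1 and 4, 2 enterocyte and 0 enteroendocrine markers were called by edgeR, with 3 enteroendocrine markers at an unadjusted p under 0.05. Progenitor markers split, with 3 higher and 2 lower of 8, and 1 higher and 1 lower without those libraries. The part of these other cells in the changes was not tested.

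Some genes of the cascade upstream were called, in both directions. Of 13 JNK cascade genes tested in progenitors, 2 rose and 1 fell, where 19.1% of all genes tested rose and 21.1% fell. The JNK bsk had 61.6 ± 3.36 CPM in mated against 60.8 ± 2.33 CPM in unmated cells (log2 fold change 0.02, adjusted p = 0.823), and the JNK kinase hep at 173 ± 22.5 CPM and 186 ± 12.7 CPM (adjusted p = 0.399). Traf6, an adaptor, and Ask1, a kinase, rose by 0.25 and 0.28 on the log2 scale (adjusted p = 0.0394 and 0.0468). Wengen (wgn), a receptor for Eiger, fell by 3.16 but at levels of 0.0888 CPM in mated against 0.844 CPM in unmated cells, and the other Eiger receptor, grnd, did not pass the filter. Without unmated libraries 1 and 4, 1 cascade gene was called, lower, where 885 of all 9117 genes tested were lower and 417 higher.

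Several stress-linked transcription factors and secreted targets fell as well in mated progenitors, where 21.1% of all genes tested fell and 19.1% rose. Of 6 stress bZIP factors, 4 fell, among them Xrp1, which acts in the response to DNA damage and ribosome loss, at 1234 ± 96.6 CPM in mated against 2211 ± 427 CPM in unmated cells (log2 fold change -0.84, adjusted p = 0.0035). The oxidative stress factor cnc fell by 0.42 and crc, the fly ATF4, by 0.26 on the log2 scale. Of 8 other JNK-linked targets tested, 4 fell and 1 rose, and without unmated libraries 1 and 4, 2 fell and 1 rose. Of all 9117 genes tested without those libraries, 885 fell and 417 rose. The cytokine upd3, which activates JAK/STAT signalling in damaged guts, fell with a log2 change of -1.69 with SE 0.28 (adjusted p = 0.00461), at 80.1 ± 21.7 CPM in mated against 258 ± 82.9 CPM in unmated cells. Timp, an inhibitor of metalloproteases, rose with 0.61 (SE 0.07, adjusted p = 0.00185). Of 4 immediate early genes 3 fell and 1 rose, and this came to 1 lower without unmated libraries 1 and 4. Atf3 is on this list and among the bZIP factors, so it is counted in both.

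Among 20 apoptosis regulators, 8 fell and none rose in mated progenitors, where 21.1% of all genes tested fell and 19.1% rose. The inhibitor Diap1 fell to 268 ± 24.2 CPM in mated, against 419 ± 97.3 CPM in unmated cells (log2 fold change -0.64, adjusted p = 0.0116). The initiator caspase Dronc fell to 47.3 ± 4.34 CPM, against 87.5 ± 25.0 CPM, with a log2 change of -0.89 (adjusted p = 0.0066). The effector caspase Dcp-1 fell by 0.67 on the log2 scale (adjusted p = 0.00184), and Drice had 31.1 ± 1.85 CPM in mated against 35.1 ± 0.96 CPM in unmated cells (adjusted p = 0.0595). Without unmated libraries 1 and 4, 5 of the 20 were called, all lower, where 885 of all 9117 genes tested were lower and 417 higher.

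**Figure D4:**
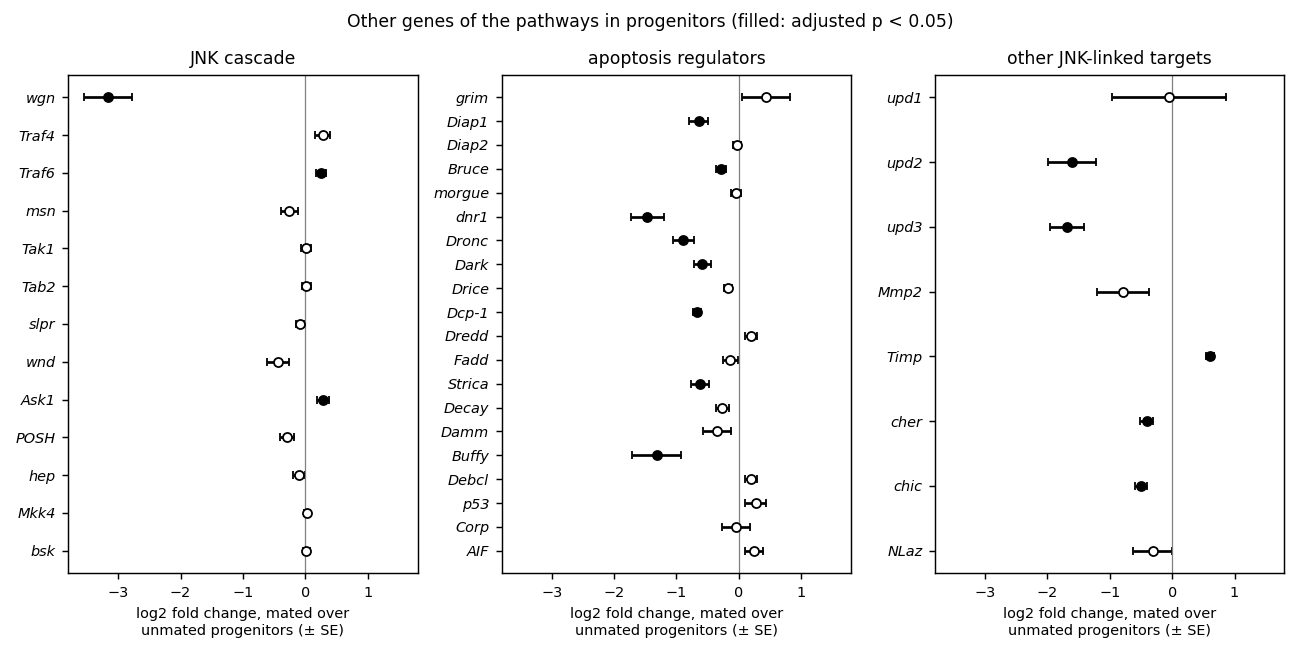
Log2 fold change of mated over unmated progenitors with its SE for the other genes of 3 lists, the JNK cascade, apoptosis regulators and other JNK-linked targets. Filled points passed an adjusted p under 0.05: 3, 8 and 5 genes.

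In whole guts of the same genotype 0 of the 8 genes tested were called for mating by edgeR or by DESeq2, and 4.26% of 8833 genes were. The 8 log2 fold changes were all below 0, from -0.60 to -0.14, with a median of -0.43, against 0.02 over all genes. At an unadjusted p under 0.05 in edgeR were 2 of them, puc and hid, as were 16.5% of all genes tested. puc was at 122, 118, 93.4 and 127 CPM in mated and 108, 182, 148 and 196 CPM in unmated guts, which overlap. hid was at 9.88, 16.8, 9.58 and 12.6 CPM in mated and 13.6, 16.5, 18.5 and 21.2 CPM in unmated guts, which overlap as well. The heat shock list had a median of -1.58 in whole guts, with 1 of 10 tested called. Unmated library 1 had the highest heat shock mean of these 8 libraries, at 5.49. Of the unmated libraries it was also the lowest for puc, Jra, kay, Mmp1, hid, Ets21C (10.8 CPM) and Gadd45 (22.2 CPM). The part of the heat shock level in these values was not tested. Of 12 visceral muscle markers 8 fell with mating in whole guts, with sums of 1620 to 2040 CPM in mated and 2800 to 3000 CPM in unmated guts.

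The mating responses of progenitors and whole guts were set against each other in a joint fit, which called 21.3% of 9448 genes. The difference, progenitor minus whole gut response, was called for hid (1.20, SE 0.24, adjusted p = 0.0044), egr (0.92, SE 0.29, adjusted p = 0.0357), Jra (-1.09, SE 0.30, adjusted p = 0.0191) and Mmp1 (-0.94, SE 0.27, adjusted p = 0.0249). For Ets21C, Gadd45 and puc it was -1.76, -1.29 and -0.83 with adjusted p of 0.0567, 0.0721 and 0.0774, and DESeq2 called these 3. Without unmated progenitor libraries 1 and 4, hid was the only gene of the 9 called (1.18, adjusted p = 0.0252), in a fit that called 7.3% of all 9484 genes.

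Set directly against whole guts, progenitors differed most in egr and Ets21C. This comparison called 82.9% of 9448 genes in mated and 81% in unmated flies, so a call is the rule, and the cells and the library sets cannot be told apart. The calls split into 43.2% higher and 39.7% lower for mated, and 42.2% higher and 38.8% lower for unmated flies. In mated flies egr was higher by 2.94 (SE 0.22) and Ets21C by 2.33 (SE 0.46), Mmp1 was lower with -1.18 (SE 0.19), and 6 of the 9 genes were not called. In unmated flies Ets21C was higher by 4.08 (SE 0.49), egr by 2.02 (SE 0.21), Gadd45 by 1.38 (SE 0.35), puc by 1.16 (SE 0.23), Jra by 0.98 (SE 0.21) and kay by 0.58 (SE 0.17), while hid was lower with -1.07 (SE 0.17). Without unmated progenitor libraries 1 and 4, kay (0.33) and Gadd45 (0.81) were not called, and Mmp1 was called lower (-0.62). Other scalings moved the median gene by -0.156 to 0.133 in mated and by -0.106 to 0.0993 in unmated flies. Of 13 heat shock genes tested, 12 were higher and 1 lower in progenitors of mated flies, with a median log2 change of 5.53. In unmated flies all 13 were higher in progenitors, with a median of 7.81. The part of the stress of sorting in these differences was not tested. The receptor genes of Eiger were lower where egr was higher: grnd was lower in progenitors with -6.42 in mated and -5.91 in unmated flies, and wgn with -7.19 and -4.00.

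In Actin flies hid was lower after mating in both genotypes, in a comparison that called 10.8% of 9036 genes in guts labelled EcR RNAi, 5.41% as lower, and 6.87% in control guts, 3.92% as lower. It was at 5.54, 9.18, 4.63 and 4.94 CPM in mated and 16.0, 13.4, 9.37 and 12.98 CPM in unmated guts labelled EcR RNAi, with a log2 change of -1.09 with SE 0.24 (adjusted p = 0.0121). In control guts it was at 6.31, 10.01, 5.998 and 6.76 CPM when mated and 14.5, 15.9, 10.1 and 11.3 CPM when unmated, with -0.83 (SE 0.24, adjusted p = 0.0475). All mated libraries were below all unmated ones of their genotype, and the groups did not overlap for 19.3% of all genes in guts labelled EcR RNAi and 14.1% in control guts. The control call was lost in 6 of 8 fits that left out 1 library, all but those without mated library 2 or unmated library 3, with adjusted p of 0.0313 to 0.12 over the 8.

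In the control guts same-numbered mated and unmated libraries correlated from 0.136 to 0.301 in their deviations from group means. The labels do not say that the number marks a shared batch. An edgeR fit with the replicate number as a block also called Jra (-0.32, adjusted p = 0.0043) and kay (-0.38, adjusted p = 0.0237) lower. So 3 of the 9 genes were called, all lower, where that fit called 9.99% of all genes, 5.4% as lower. The block covered all Actin libraries, also those labelled EcR RNAi, where same-numbered mated and unmated libraries correlated from only 0.0397 to 0.151. Without the block Jra had 73.7 ± 6.76 CPM in mated against 92.0 ± 10.7 CPM in unmated controls (log2 fold change -0.32, adjusted p = 0.0924). puc, Ets21C, Gadd45, Mmp1 and egr were not called in either genotype in either fit. The change of hid was in the opposite direction to that in progenitors in these 2 genotypes, and the difference between the materials was not tested.

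rpr was lower in the libraries labelled EcR RNAi, in which EcR itself was not lower, than in Actin controls. The comparison called 8.52% of 9036 genes in mated guts, 4.99% as lower, and 15.2% in unmated guts, 7.24% as lower. In mated guts rpr was at 1.74, 0.762, 1.56 and 0.935 CPM (42, 19, 32 and 21 counts) in libraries labelled EcR RNAi and 1.85, 2.23, 3.12 and 4.72 CPM (58, 58, 76 and 90 counts) in control libraries, a log2 change of -1.24 with SE 0.37 (adjusted p = 0.0496). Every library labelled EcR RNAi was below every control library in both mating states, and for 13.1% of all genes in mated and 20.2% in unmated guts the genotypes did not overlap. The mated call was lost in 7 of 8 fits that left out 1 library, all but the one without control library 1, with adjusted p of 0.0357 to 0.161. In unmated guts rpr was at 0.838, 0.345, 0.448 and 0.362 CPM (23, 7, 10 and 7 counts) in libraries labelled EcR RNAi and 1.45, 1.16, 2.63 and 2.41 CPM (39, 30, 75 and 50 counts) in control libraries, a log2 change of -1.89 with SE 0.41 (adjusted p = 0.00613). The unmated call was kept in all 8 such fits, from -2.29 to -1.69.

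Without the replicate block the other 8 genes were not called between these genotypes in either mating state, and hid was at 12.9 ± 2.74 CPM in unmated guts labelled EcR RNAi and 12.95 ± 2.71 CPM in unmated control guts. For mating in guts labelled EcR RNAi rpr had a log2 change of 1.28 (SE 0.42), which was not called (adjusted p = 0.0604) but was by DESeq2 (adjusted p = 0.0256). The interaction of EcR RNAi and mating called 0 of 9036 genes by edgeR and 1 by DESeq2, with 727 genes at an unadjusted p under 0.05. For rpr it was 0.65 (SE 0.55, adjusted p = 0.753).

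**Figure D5:**
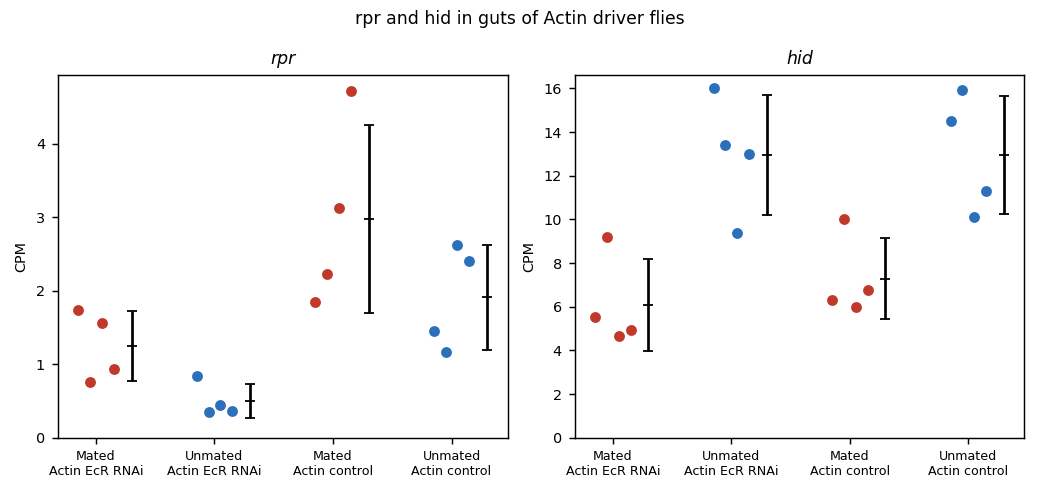
CPM of rpr and hid in each library of the 4 Actin groups, with mean and SD beside the points and mated libraries in red. rpr was lower in guts labelled EcR RNAi than in control guts in both mating states, and hid was lower in mated than in unmated guts of both genotypes.

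The rest of the apoptosis list in Actin guts included the caspase gene Dronc, which fell with mating in guts labelled EcR RNAi to 23.3 ± 7.15 CPM, against 53.5 ± 9.99 CPM (log2 fold change -1.20, adjusted p = 0.00229), and in control guts to 26.7 ± 2.74 CPM, against 45.4 ± 7.47 CPM (-0.77, adjusted p = 0.0255). Buffy, a Bcl-2 family gene, fell in both, with -0.82 (adjusted p = 0.00123) in guts labelled EcR RNAi and -0.73 (adjusted p = 0.00377) in control guts. In esg-Gal4 whole guts Buffy rose instead, at 25.3 ± 3.19 CPM in mated against 12.5 ± 1.40 CPM in unmated guts (1.02, adjusted p = 0.00215), and the difference between these materials was not tested. Of 19 regulators tested, 1 rose and 4 fell in guts labelled EcR RNAi and 3 fell in control guts. Mating called 10.8% of all genes in guts labelled EcR RNAi, 5.41% as lower, and 6.87% in control guts, 3.92% as lower.

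Against controls, guts labelled EcR RNAi had lower transcripts of the receptor gene wgn in both mating states, with -0.42 (adjusted p = 0.0115) in mated and -0.50 (adjusted p = 0.00218) in unmated guts, and higher ones of Timp, with 0.68 (adjusted p = 0.00363) and 0.62 (adjusted p = 0.00435). The heat shock list had 1 of 13 called, Hsp70Bb, at 1.33 ± 1.47 CPM in mated guts labelled EcR RNAi and 77.2 ± 16.6 CPM in mated control guts. In unmated guts labelled EcR RNAi 7 of 12 visceral muscle, 4 of 11 enterocyte and 4 of 12 enteroendocrine markers were lower, and 3 of 8 progenitor markers were higher. In mated guts labelled EcR RNAi 2 of 12 visceral muscle, 2 of 11 enterocyte and 3 of 12 enteroendocrine markers were lower, and 1 enteroendocrine marker was higher. Of 4 ovary markers 1 was lower in these mated guts, with a list median of -1.95 on the log2 scale, and of 7 haemocyte markers 1 was higher. In unmated guts 0 markers of these 2 lists were called. Over all genes, 15.2% were called in unmated guts, 7.24% as lower, and 8.52% in mated guts, 4.99% as lower. The part of these markers in the result for rpr was not tested.

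Levels across the groups are ordered within the Actin table and, for progenitors and whole guts, on the joint scale. In Actin guts rpr stood highest in mated controls (2.98 ± 1.28 CPM), then in unmated controls (1.91 ± 0.71), mated guts labelled EcR RNAi (1.25 ± 0.47) and unmated guts labelled EcR RNAi (0.498 ± 0.231). In esg-Gal4 material the joint means of rpr were 0.418 ± 0.223 CPM in unmated progenitors, 0.405 ± 0.356 CPM in mated whole guts, 0.355 ± 0.263 CPM in unmated whole guts and 0.177 ± 0.0975 CPM in mated progenitors. The means of mated and unmated guts labelled EcR RNAi were apart by more than their SDs, but their libraries overlapped. That change was not called by edgeR (adjusted p = 0.0604). The means of the other neighbours in either order were not apart by more than their SDs.

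On the joint scale puc was highest in unmated progenitors (430.2 ± 137 CPM), followed by unmated whole guts (192 ± 45.4), mated progenitors (175 ± 38.4) and mated whole guts (138 ± 17.9), so that unmated progenitors stood apart and the other 3 groups lay within their spreads. In Actin guts its means were 112 ± 18.1 CPM in unmated controls, 97.2 ± 14.7 CPM in unmated guts labelled EcR RNAi and 88.4 CPM in both mated groups.

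Ets21C had joint means of 132 ± 59.4 (mated) and 675 ± 219 CPM (unmated) in progenitors, against 26.4 ± 10.8 (mated) and 39.8 ± 22.5 CPM (unmated) in whole guts, and both progenitor groups were above both whole gut groups. Its Actin means were 18.0 to 29.5 CPM. For Gadd45 the joint means were 40.3 ± 13.1 (mated) and 151 ± 58.5 CPM (unmated) in progenitors, against 38.0 ± 10.3 (mated) and 58.0 ± 24.6 CPM (unmated) in whole guts, and its Actin means were 19.8 to 32.0 CPM. Jra stood at 85.8 ± 15.1 (mated) and 244 ± 70.5 CPM (unmated) in progenitors, against 92.6 ± 12.6 (mated) and 123 ± 31.7 CPM (unmated) in whole guts. For both genes unmated progenitors were above the other 3 groups, which lay within their spreads.

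The joint means of kay were 603 ± 57.0 (mated) and 960.5 ± 214 CPM (unmated) in progenitors, against 488 ± 101 (mated) and 641 ± 108 CPM (unmated) in whole guts. Mmp1 was lowest in mated progenitors, at 92.4 ± 6.43 CPM, against 197.5 ± 67.3 CPM in unmated progenitors, 209 ± 27.6 (mated) and 233 ± 44.5 CPM (unmated) in whole guts. egr was at 183 ± 15.1 (mated) and 121 ± 21.6 CPM (unmated) in progenitors on this scale, against 23.8 ± 5.75 (mated) and 29.7 ± 8.95 CPM (unmated) in whole guts. Its 4 Actin means, 17.5 to 18.7 CPM, did not differ beyond their spread.

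hid had its highest joint mean in unmated whole guts, at 21.2 ± 3.67 CPM, followed by mated progenitors at 16.1 ± 2.43 CPM, mated whole guts at 14.7 ± 4.12 CPM and unmated progenitors at 10.1 ± 0.531 CPM. In Actin guts its lowest mean was in mated guts labelled EcR RNAi, at 6.07 ± 2.11 CPM.

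Genes whose 8 group means on the log2 scale were most like those of puc were CG8578 (Pearson r 0.9875), Exo84 (0.9874) and CG42240 (0.9869), of 6070 genes compared. Most like rpr were Cyp6d2 (0.9561), MFS17 (0.9448) and AdamTS-A (0.9447), of 6071 genes. These values are over 8 groups that share tables, and are a description.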

How the data were processed

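RNA of 32 libraries was analysed, 4 for each of 8 groups. The 15 Myo1A samples were not analysed here, since the table named for them holds whole gut columns with identical values, and 16 further columns were not used. The deposited counts per gene were made by the authors with STAR, HTSeq and DESeq2 on BDGP6 and dm6, per the submitters' processing notes. The sources used here give neither versions nor strand setting, and libraries were directional with poly(A) selection, per the labels. Entries for transposable elements (501, 1059 and 594, at most 0.22% of counts) stayed out of library sizes and tests.

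Counts were tested in R 4.3.3 with edgeR 4.0.16: filterByExpr with a minimum count of 10 and total of 15, TMM scaling, robust quasi-likelihood fits and Benjamini-Hochberg adjustment over all genes tested (8833 whole gut, 9025 progenitors, 9036 Actin, 9448 jointly). The adjusted p values of the text are from this test unless DESeq2 1.42.0 is named. Whole guts and progenitors were fitted alone for mating and together for comparisons between them, and the 16 Actin libraries together. SE is the log2 fold change over the square root of F. Replicates are pools of guts, and p-values measure the spread between them. With the lowest counts, precision is limited: rpr had 1 to 28 counts per library in esg-Gal4 material.

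The 9 genes and all lists were chosen with earlier results of these data known. Named were the 9 genes, EcR, bsk, hep, grnd, Diap1, Dronc, Drice, up to 3 called genes per list with the smallest adjusted p, and the 3 genes most like puc and rpr among those whose mean log2 CPM reached 3. A selection of them is printed.

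The main fits held group means only, and the replicate number was a block only in an alternative fit. Whether all same-numbered pairs correlated above 0.1 in their deviations from group means was looked at as a description. That held for mated and unmated Actin controls (0.136 to 0.301), but the labels do not say that the number marks a shared batch. It did not hold for guts labelled EcR RNAi (0.0397 to 0.151), and the block of the Actin fit covered both genotypes. Positions, 1-based, come from BDGP6.54 and were matched on gene identifiers. Alternatives were DESeq2, DESeq2 size factors in edgeR, upper quartile scaling, dropping the filter, the replicate block, compared groups only, leaving out each library, and leaving out unmated progenitor libraries 1 and 4. The fits were tested on simulated counts.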

Additional observations from a re-analysis of the deposited data

Results flagged for a closer look

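Gadd45 stood at 23.5 CPM in replicate 2 of mated Actin guts labelled EcR RNAi, against 18 to 18.8 CPM in the other 3 libraries, so that 1 library lay far from the others (Dixon's ratio 0.852, above the 95% critical value for 4 samples). Of 72 sets of a gene and a group this was the only one, and chance gives about 1 in 20.

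The mating response of progenitors differed from that of whole guts in the joint fit for egr (0.92), hid (1.20), Jra (-1.09) and Mmp1 (-0.94), each a difference of log2 fold changes with an adjusted p under 0.05 by edgeR. The egr call was lost in 9 fits that left out 1 library.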

How the results depend on the processing

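No call of the 9 genes turned its direction under any alternative run. Of 240 values of called results with a library left out, 217 were still called, and of 163 under other alternatives 154 were. Of results not called, 16 of 608 values and 13 of 356 values were called. Leaving out each library gave 8 to 9 of the 9 genes for mating in progenitors (9, with rpr, without unmated library 3), 0 to 1 in Actin controls, 1 to 2 in guts labelled EcR RNAi, 0 to 1 for EcR RNAi in mated and 1 to 1 in unmated guts, 3 to 5 and 7 to 8 for progenitors against whole guts in mated and unmated flies, and 3 to 7 for the difference of responses. Over all genes it gave 2248 to 4304 in progenitors (2248 without unmated library 4), 195 to 510 in whole guts, 288 to 668 in Actin controls, 449 to 1067 in guts labelled EcR RNAi, 471 to 639 for EcR RNAi in mated guts, 919 to 1292 in unmated guts and 1400 to 2542 for the difference of responses.

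DESeq2 called 678 genes for mating in whole guts and 1048 in Actin controls, 1 for the interaction, 2 of the 9 genes for mating in guts labelled EcR RNAi and 7 for the difference of responses. Upper quartile scaling called 2 of the 9 for mating in guts labelled EcR RNAi. Its split over all genes was 143 higher and 221 lower in whole guts, against 197 and 179, then 727 and 400 for mating in guts labelled EcR RNAi, against 485 and 489, and 567 and 781 for EcR RNAi in unmated guts, against 718 and 654. With no filter, 0 of the 9 were called for mating in Actin controls (hid, adjusted p = 0.052) and for EcR RNAi in mated guts (rpr, adjusted p = 0.0524). With only the compared groups in the fit, 0 of the 9 and 266 of all genes were called for mating in Actin controls, and 0 and 484 for EcR RNAi in mated guts. Without unmated progenitor libraries 1 and 4, 1302 genes were called for mating in progenitors, 1281 of them also with those libraries, and 692 genes and 1 of the 9 for the difference of responses. The causes were not tested.

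With the replicate number as a block, 3 of the 9 genes and 9.99% of all genes were called for mating in Actin controls, 3 (hid, rpr and Jra) and 14.2% for mating in guts labelled EcR RNAi, and 3 (rpr, Jra and kay) and 17.6% for EcR RNAi in unmated guts. Same-numbered libraries correlated from 0.0397 to 0.151 and from -0.00668 to 0.237 in the last 2 comparisons. Libraries of other numbers had mean correlations of -0.0299 and -0.0402 there. The labels do not say whether a batch is shared. The block changed no other count of calls over the 9 genes or over all genes by over 1.5 times. Of the lists counted in the text it moved apoptosis regulators for mating in guts labelled EcR RNAi to 8, against 5, progenitor markers for EcR RNAi in unmated guts to 5, against 3, and tracheal and ovary markers for mating in progenitors to 1 and 2, against 2 and 1. Counts of rpr, at most 28 per library in esg-Gal4 material, limit what could be seen of it there.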
